A study of Drosophila melanogaster with 14 samples.

Results

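The comparison described here is a difference of differences between a pair of *sgg* null alleles. For each gene, the log2 change in *sgg* isoA null embryos against their controls (the isoA effect) was taken away from the log2 change in *sgg* isoB zygotic null embryos against theirs (the isoB effect). A positive difference therefore means that the transcript stood higher, relative to its own controls, in isoB nulls than in isoA nulls. The rule used all 14 samples of the series, with a single mean for each of the 4 groups. Of the 17493 genes in the count table, 11021 had enough reads to be tested, and 280 were called for the difference at an adjusted p of at most 0.05 (2.54% of those tested).

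All embryos were collected at 10 to 15 h and used whole, so fewer cells of a type and less RNA per cell cannot be told apart. The tested groups were 4 samples of isoB zygotic nulls, with 4 control samples, and 3 samples of isoA nulls, with 3 control samples. Both alleles are CRISPR/Cas9 deletions of the last exon that is particular to a protein form, Sgg-PB or Sgg-PA. Both were made in a strain that carries an attP40 landing site and germline Cas9, and the progenitor strain supplied the controls. The paper's methods describe a cross of injected flies to *w1118* before stocks were made. Nulls and controls may therefore differ in genetic background, which cannot be told apart from the deletion. The isoB nulls were the embryos without green fluorescence from mothers carrying the mutation over the FM7-GFP balancer, crossed to FM7-GFP males. By this cross they were hemizygous males that still had maternal product from a heterozygous mother, of an allele that is lethal by early larval life. Their controls were sorted in the same way from progenitor mothers over the same balancer, as the sample labels give it; the sources name this control in more than one way, and the labels were followed. The isoA nulls came from a homozygous, viable and fertile stock, so they lacked maternal as well as zygotic product, were not sorted by sex, and were compared with the unsorted progenitor stock. Isoform, maternal product, sex and the way embryos were collected changed together between the experiments and cannot be told apart in the difference. Nothing in the labels says whether replicates were separate crosses, so p-values measure the spread between these samples.

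*shaggy* encodes the *Drosophila* Glycogen Synthase Kinase 3, a kinase that restrains Wnt signalling by marking Armadillo for destruction, also phosphorylates Cubitus interruptus in the Hedgehog pathway, and acts in insulin signalling and glycogen metabolism. Its transcripts end in alternative last exons. In the embryo, Sgg-PB is the widespread protein form with a large maternal supply, and Sgg-PA is found mostly in the nervous system.

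The guides that removed the last exons are shown because they define what each null lacks. They target *sgg* on the X chromosome, are written 5′ to 3′ with the PAM in capitals, and come from the oligonucleotide list of the study.
A_sgg_gRNA_1 (isoA null): agaaaccgaggcagcggcgtCGG
A_sgg_gRNA_2 (isoA null): gccctcaatagcagcggaagTGG
B_sgg_gRNA_1 (isoB null): cgggatatattgatcgtccaTGG
B_sgg_gRNA_2 (isoB null): gttgttgttgttgtgggtgtAGG
The count table holds a single value for *sgg* over all its exons, so these deletions are not read directly. Levels are given as CPM, which are counts scaled to a common library size with a correction for composition. *sgg* had 340, 271, 330 and 262 CPM in isoB nulls, against 384, 326, 350 and 356 CPM in their controls. It had 262, 276 and 324 CPM in isoA nulls, against 262, 269 and 192 CPM in theirs. Null and control samples overlapped in both experiments, and the difference of effects was -0.49 (SE 0.18, adjusted p = 0.150, not called). Two-sided exact permutation tests of the log2 CPM gave p = 0.0857 in the isoB and p = 0.2 in the isoA experiment, where the smallest values possible were 0.0286 and 0.1.

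Total counts ran between 14378062 and 25124367 in isoB nulls, 11189291 and 23798611 in isoB controls, 15841397 and 18311205 in isoA nulls, and 8082962 and 12800846 in isoA controls. The shallowest group was thus the isoA controls, whose replicates also spread most, and the median SD of log2 CPM across genes was 0.213 in isoB nulls, 0.153 in isoB controls, 0.164 in isoA nulls and 0.253 in isoA controls. isoA control replicate 3 stood apart from its group, and the 2 experiments fell on separate sides of the first axis of a multidimensional scaling, which held 31.7% of the variance. Levels set side by side across the experiments carry that separation.

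Of the 280 called genes, 188 had a higher and 92 a lower difference (1.71% and 0.835% of genes tested). Of these, 227 also differed by at least 0.7 log2 units (2.06%), 148 higher and 79 lower. An unadjusted p under 0.05 was found for 2304 of the 11021 genes tested. Counts for the gene lists below are to be read beside these shares of all genes. In the same fit the isoB effect alone was called for 1150 genes (10.4%), 516 up and 634 down. The isoA effect alone was called for 573 (5.2%), 273 up and 300 down. Sorted by those single effects, 141 of the 280 had changed in the isoB null only, 90 in the isoA null only, 20 in both with opposite signs, 5 in both with the same sign and 24 in neither. The median absolute difference was 1.01 log2 units in the isoB only class and 1.31 in the isoA only class. Null and control samples did not overlap in either experiment for 103 of the called genes, against 5.44% of all genes tested. Counts were scaled by TMM, and with total counts alone the split turned to 128 higher and 190 lower, as the median difference of all genes moved to -0.13 from -0.02.

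The number called depended on single libraries. It was 103 without isoA null replicate 3, 123 without isoA null replicate 2 and 164 without isoA null replicate 1. It was 579 without isoA control replicate 2, the shallowest library, and 185 without isoA control replicate 3. Leaving out isoB control replicate 1, 2, 3 or 4 left 167, 152, 154 and 173 calls. Of the 280 genes, 92 were called in all 14 fits that left out a sample, and 51 of these were also called in all 10 other settings tried. The isoB only class held 69 genes without isoA null replicate 3 and 193 without isoA control replicate 2, and the isoA only class 22 and 276 in the same fits. The sign of the difference stayed the same for all 280 in each of the 24 settings in which the gene was fitted.

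**Figure D1:**
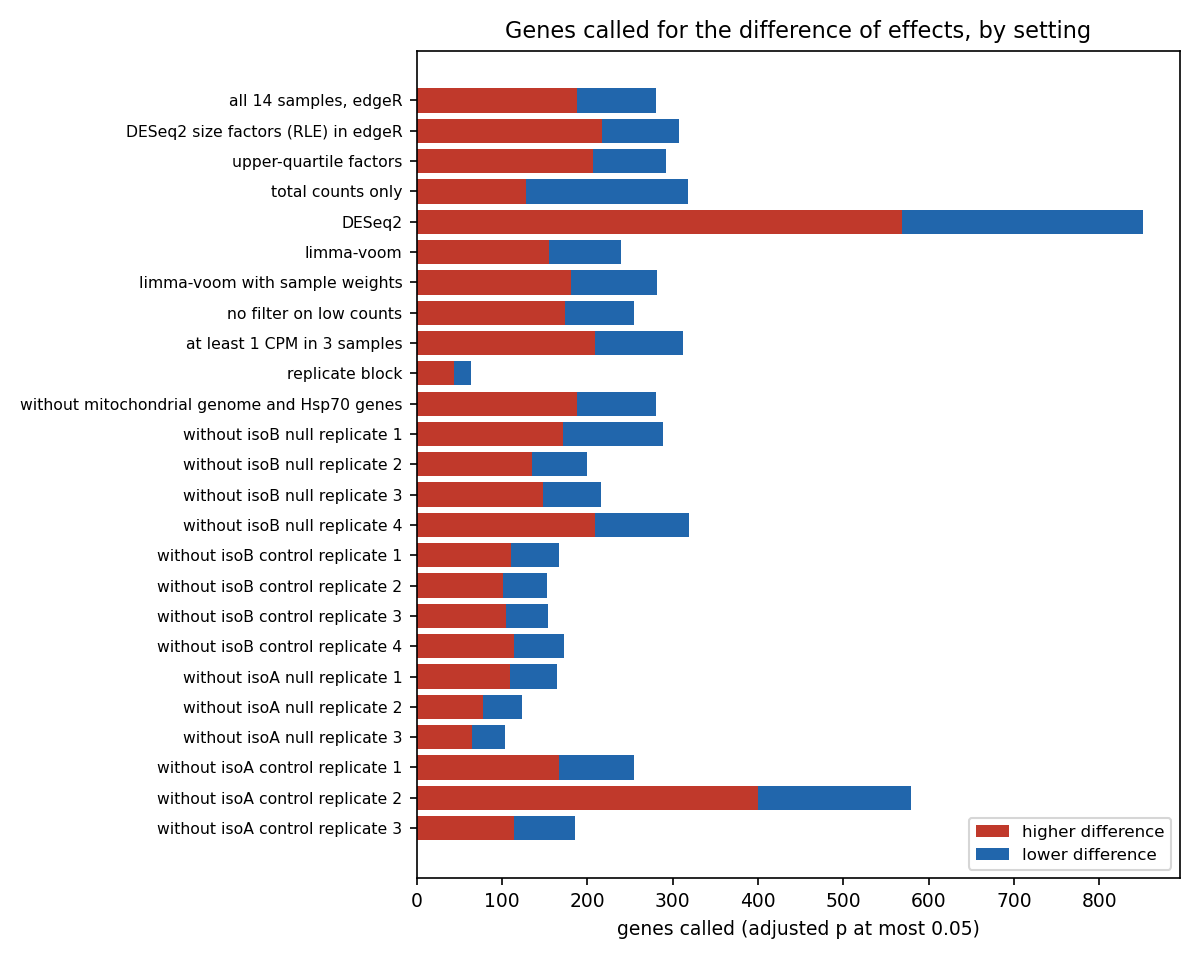
Number of genes called for the difference of effects (horizontal axis) with all 14 samples, under 10 other settings and without each sample in turn (rows). Red bars count genes with a higher and blue bars genes with a lower difference. DESeq2 called 852 genes, the replicate block 63, and the fits without a sample between 103 and 579.

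**Figure D2:**
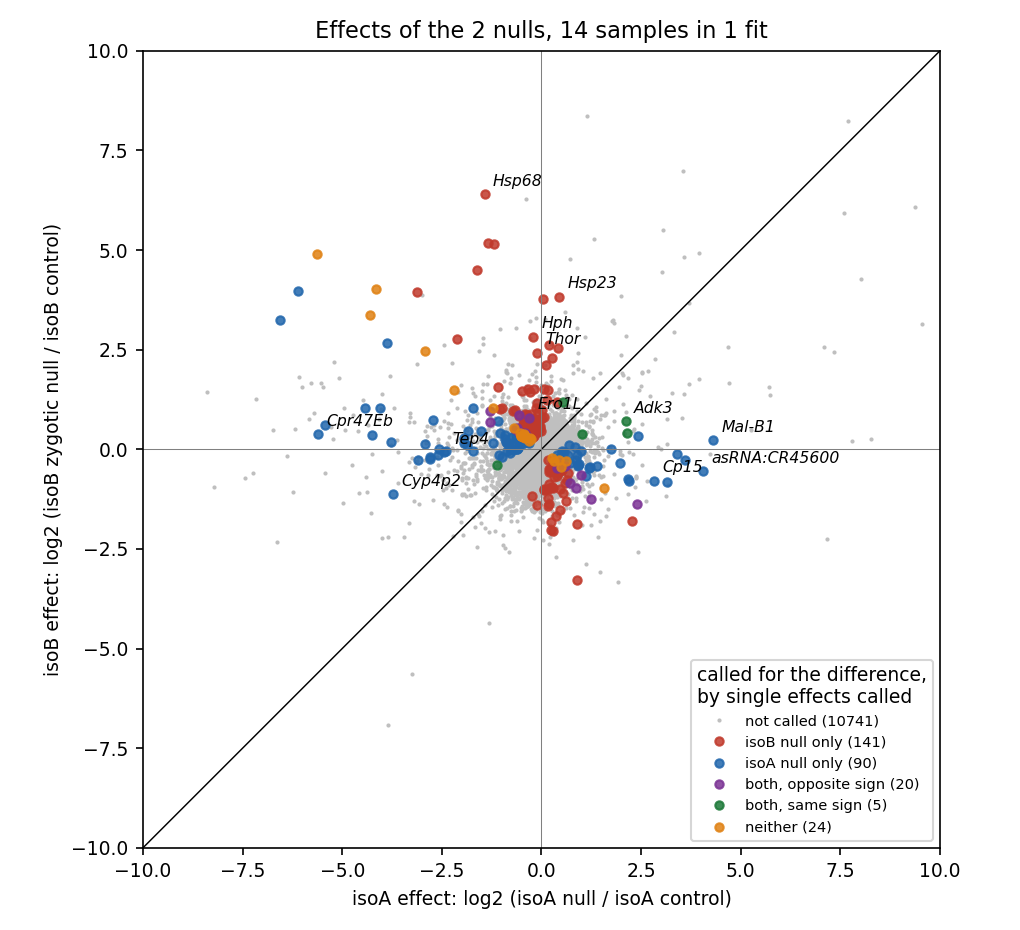
Log2 isoB effect (vertical) against log2 isoA effect (horizontal) for each of the 11021 genes tested, with the 280 called genes coloured by which single effects were called. Distance above or below the diagonal is the difference of effects. Most genes of the isoB only class lie along the vertical axis and most of the isoA only class along the horizontal axis, and positions of genes near zero counts in a group depend on the fit's prior count.

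The smallest p-values for the difference belonged to genes that rose in isoB nulls and stayed near the level of the other 3 groups elsewhere. *Hph* (3R, 5257037 to 5269507), the prolyl hydroxylase that marks the hypoxia factor Sima for degradation, had 255, 242, 226 and 245 CPM in isoB nulls, against 37.2, 30.1, 34.2 and 34.3 CPM in their controls. In isoA nulls it had 37.2, 31.7 and 31.3 CPM, against 35.4, 37.8 and 42.0 CPM in theirs. All 4 isoB nulls were above all other samples, and the 10 other samples shared a narrow range. The difference was 3.03 (SE 0.14, adjusted p = 3.02e-08), made up of an isoB effect of 2.83 and an isoA effect of -0.20. The exons of *Hph* overlap those of *CR45033*, so its counts are uncertain in the shared part.

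*Thor*, the 4E-BP that blocks cap-dependent translation, had 531, 659, 525 and 577 CPM in isoB nulls, against 95.9, 105, 103 and 121 CPM in their controls. It had 104, 101 and 95.6 CPM in isoA nulls, against 112, 106 and 107 CPM in theirs. The isoB nulls were again the only high samples, with a difference of 2.54 (SE 0.14, adjusted p = 1.7e-07). *fok* followed, with a difference of 1.70 (SE 0.11, adjusted p = 1.78e-06) and 570 to 662 CPM in isoB nulls, against 204 to 259 CPM in the other 10 samples.

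Members of the insulin, TOR and translation list beside *Thor* were *larp*, an RNA-binding protein that acts on messages of the translation machinery, and *ImpL2*, a secreted protein that binds insulin-like peptides. *larp* had 807, 703, 675 and 702 CPM in isoB nulls, against 344, 272, 344 and 321 CPM in their controls. It had 205, 237 and 237 CPM in isoA nulls, against 274, 241 and 223 CPM in theirs. The isoB groups did not overlap, the isoA groups did, and the difference was 1.29 (SE 0.15, adjusted p = 0.000394). *ImpL2* had 283, 344, 313 and 457 CPM in isoB nulls, against 168, 181, 168 and 242 CPM in their controls. Its isoA nulls had 128, 119 and 109 CPM, against 184, 151 and 135 CPM in theirs. Both pairs of groups were apart, in opposite directions, although the isoA effect of -0.40 was not called. The difference of 1.28 (SE 0.24, adjusted p = 0.0124) lost its call without isoA null replicate 3 (adjusted p = 0.0504). Of the 30 list members tested, 3 were called, all higher (10%, against 1.71% of all genes in that direction). The median difference of the list was 0.12, against -0.02 over all genes.

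*Atg13*, which starts autophagy together with the Atg1 kinase, had 167, 154, 142 and 150 CPM in isoB nulls, against 59.3, 51.6, 56.4 and 51.5 CPM in their controls. In isoA nulls it had 54.5, 45.8 and 57.8 CPM, against 42.9, 53.1 and 45.9 CPM in theirs. The difference was 1.33 (SE 0.15, adjusted p = 0.000283). It was the single called gene of 23 tested in the autophagy list (4.35%, against 2.54% of all genes), whose median difference was -0.01. Of 8 hypoxia genes tested, 2 were called, *Hph* and *Ldh* (25%). *Ldh*, lactate dehydrogenase, also stood in the glycolysis list, as 1 call among 12 genes tested. It had 398, 443, 395 and 324 CPM in isoB nulls, against 265, 289, 233 and 285 CPM in their controls. The isoA nulls had 333, 316 and 316 CPM, against 374, 300 and 429 CPM in theirs, where the groups overlapped. Its difference of 0.74 (SE 0.18, adjusted p = 0.0441) was called in 2 of the 14 fits without a sample, with an adjusted p of up to 0.115 without isoA null replicate 3.

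Chaperones were the list with the largest share of calls. Of 38 heat shock and chaperone genes tested, 14 were called, all higher (36.8%, against 1.71% of all genes in that direction), and 35 of the 38 had a positive difference, with a median of 0.63. The isoB effect was called up in 18 members and the isoA effect in none. *Hsp68*, an inducible member of the Hsp70 family, had 288, 121, 75.0 and 334 CPM in isoB nulls, against 2.20, 2.89, 2.15 and 2.50 CPM in their controls. It had 2.69, 2.93 and 2.52 CPM in isoA nulls, against 4.30, 8.57 and 9.32 CPM in theirs. The isoB nulls were far above all other samples but varied widely among themselves, and the isoA nulls lay below their controls without a call. The difference was 7.83 (SE 0.70, adjusted p = 3.71e-05).

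*Hsp23*, a small heat shock protein, had 453, 230, 196 and 317 CPM in isoB nulls, against 25.3, 16.8, 17.5 and 24.1 CPM in their controls, and 36.2, 30.0 and 32.9 CPM in isoA nulls, against 28.8, 23.8 and 20.7 CPM in theirs. Its difference was 3.39 (SE 0.36, adjusted p = 0.000193). *Hsf*, the factor that turns on heat shock genes, had 185, 196, 188 and 177 CPM in isoB nulls, against 96.7, 90.3, 89.1 and 102 CPM in their controls. The isoA nulls had 92.3, 81.8 and 83.5 CPM, against 79.2, 90.2 and 87.7 CPM in theirs. The isoB groups were apart and the isoA groups overlapped, and the difference of 0.98 (SE 0.11, adjusted p = 0.000437) was nearly the isoB effect itself. For *Hsf*, two-sided exact permutation tests gave p = 0.0286 in the isoB and p = 1 in the isoA experiment.

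Other called members of the list were cytosolic co-chaperones and constitutive forms. *DnaJ-1* had a difference of 1.45, *Hsp83* of 1.71, *Stip1* of 0.96 and *Hsc70-4* of 0.64, while the mitochondrial chaperones *Hsc70-5* and *Hsp60A* had differences of 0.72 and 0.64. In mean log2 CPM, *Hsp83* had 9.875 in isoB nulls and 8.46 in isoB controls, against 9.22 in isoA nulls and 9.459 in isoA controls. In the same order *Stip1* had 6.555, 5.803, 6.369 and 6.571, and *Hsc70-4* 11.353, 10.8, 11.145 and 11.22. For these genes and *Hsp27* the group farthest from the median of the others was the isoB control, on the low side. It was the isoB null for *DnaJ-1*, *Hsc70-5* and *Hsp60A*. The small heat shock genes *Hsp26* (3.74) and *Hsp27* (2.44) were also called, but in only 5 and 7 of the 14 fits without a sample, and neither under voom with sample weights nor with the replicate block. *Hsp60A* was called in 4 of the 14 fits, and *Stip1* and *Hsc70-4* in 13 each. *Hsp70Bb* and *Hsp70Bc*, nearly identical copies whose reads cannot be told apart with certainty, had fitted differences of 6.13 and 6.33, called in 8 and 14 of these fits. Between 8 members, without isoA null replicate 2 or 3, and 17 were called when a sample was left out, and 10 were called without isoA control replicate 3. The summed level of the list was 8195 to 9958 CPM in isoB nulls, against 5302 to 5570 CPM in isoB controls, and 6291 to 6994 CPM in isoA nulls, against 6642, 6659 and, in replicate 3, 8912 CPM in isoA controls. The part of that control sample in the difference was not tested beyond leaving it out.

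**Figure D3:**
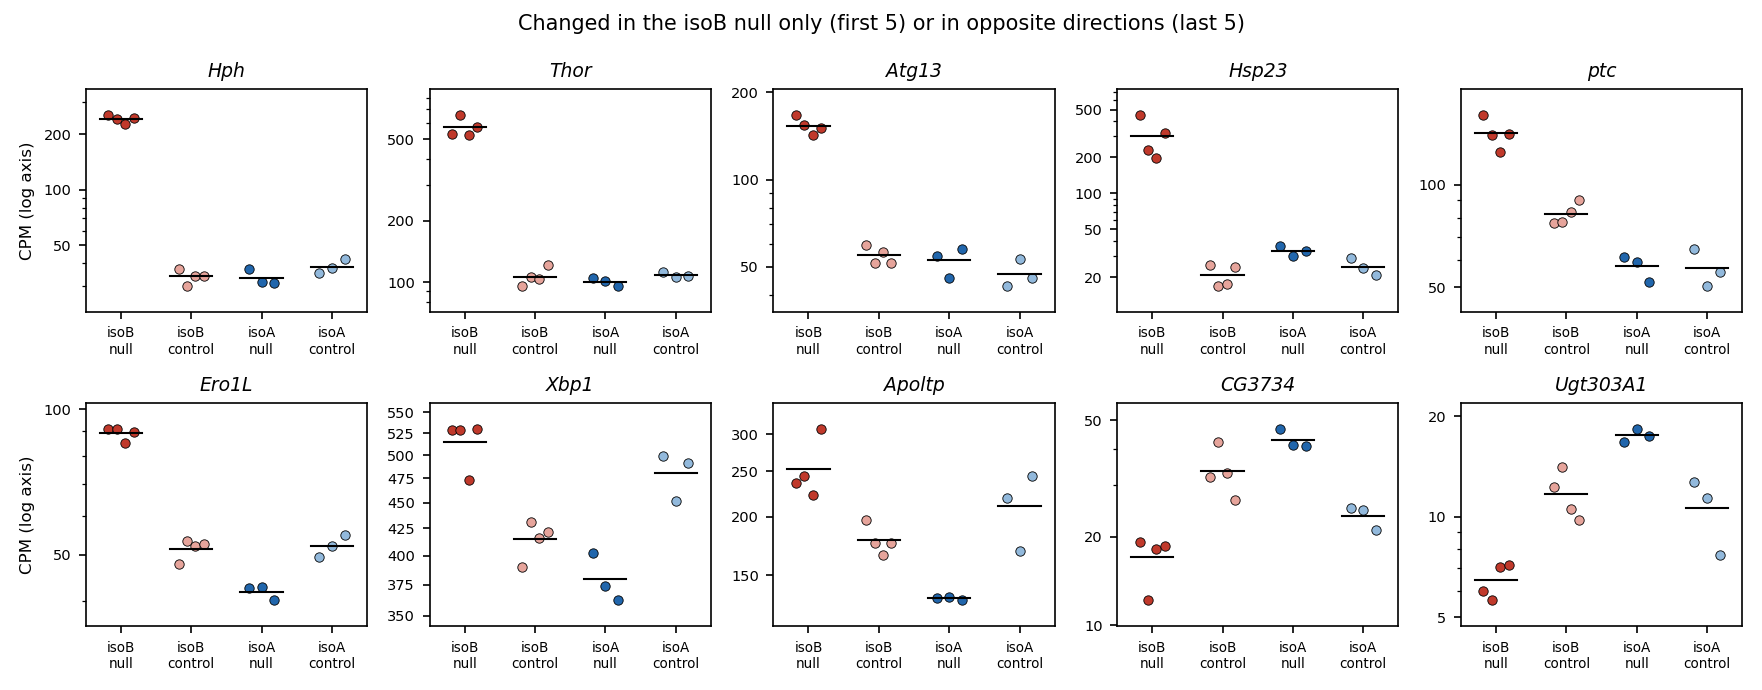
CPM on log axes in each of the 14 samples for 5 genes of the isoB only class (top row) and 5 genes changed in opposite directions (bottom row). Points are samples and bars are group means. In *Hph*, *Thor*, *Atg13*, *Hsp23* and *ptc* the 4 isoB nulls sit above all other samples, while in *Ero1L*, *Xbp1* and *Apoltp* the isoB nulls are above and the isoA nulls below their own controls.

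Genes of the unfolded protein response, which relieves the endoplasmic reticulum of misfolded proteins, included members that moved in opposite directions in the nulls. Of 25 genes tested in that list, 7 were called, all higher (28%, against 1.71% of all genes in that direction), with a median difference of 0.29. The isoB effect was called up in 6 members and down in none, and the isoA effect up in 1 and down in 4. *Ero1L*, the oxidase that supplies disulfide bonds, had 91.1, 90.9, 85.2 and 89.9 CPM in isoB nulls, against 47.9, 53.4, 52.0 and 52.5 CPM in their controls. It had 42.7, 42.8 and 40.2 CPM in isoA nulls, against 49.4, 52.2 and 54.95 CPM in theirs. No samples of a null and its control overlapped, the isoB effect was 0.80 (adjusted p = 1.09e-05), the isoA effect -0.32 (adjusted p = 0.0413), and the difference 1.11 (SE 0.11, adjusted p = 8.88e-05).

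*Xbp1*, the transcription factor of the response, had 529, 528, 474 and 530 CPM in isoB nulls, against 390, 431, 416 and 421 CPM in their controls. In isoA nulls it had 402, 374 and 362 CPM, against 499, 451 and 492 CPM in theirs. It rose in isoB nulls by 0.31 (adjusted p = 0.0133) and fell in isoA nulls (-0.34, adjusted p = 0.0316), for a difference of 0.66 (SE 0.11, adjusted p = 0.00463). *CaBP1*, a disulfide isomerase, also moved in opposite directions, with a difference of 0.83 (SE 0.16, adjusted p = 0.0134). *Gp93*, the Hsp90 of the endoplasmic reticulum, had 674, 597, 572 and 762 CPM in isoB nulls, against 444, 438, 429 and 441 CPM in their controls, and 504, 450 and 483 CPM in isoA nulls, against 557, 543 and 680 CPM in theirs. Its difference was 0.88 (SE 0.15, adjusted p = 0.00648), and *Hsc70-3*, the BiP chaperone, had 1.13 (SE 0.22, adjusted p = 0.0138). For *Hsc70-3* the isoB controls were the low group, with a mean log2 CPM of 9.328, against 10.071 in isoB nulls. It was 9.696 in isoA nulls and 10.045 in isoA controls.

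*Pdi*, protein disulfide isomerase, had 1350, 1529, 1335 and 1148 CPM in isoB nulls, against 989, 955, 1071 and 1063 CPM in their controls. The isoA nulls had 1118, 893 and 1093 CPM, against 1291, 1179 and 1725 CPM in theirs. Neither single effect was called, and the difference of 0.83 (SE 0.18, adjusted p = 0.033) lost its call in 10 of 14 fits without a sample, with a highest adjusted p of 0.0997 without isoA null replicate 2. *Calr*, calreticulin, was called at 0.65 (SE 0.16, adjusted p = 0.0445), with the isoA effect the only single effect called, and kept the call in 2 of the 14 fits. Between 4 members, without isoA null replicate 2, and 9 were called when a sample was left out. The summed level of the list was again highest among isoA samples in isoA control replicate 3, with 9101 CPM, and 5 members were called without it.

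*Ero1L*, *Xbp1* and *CaBP1* were among 20 genes called in both experiments with opposite signs, which required each of them to pass 3 tests. Of the 20, 19 kept the call for the difference in all 14 fits without a sample, while 9 lost it in the fit with a replicate block, *Xbp1*, *CaBP1*, *Ugt303A1* and *Ugt35B1* among them, and no gene of that fit fell in the class. The class was smaller wherever a single effect lost its own call, with 1 gene without isoA null replicate 2, 2 without isoA null replicate 3 and 9 without isoA control replicate 3. In 12 of the 20 the isoB null was higher and the isoA null lower than its control. *CG16758* had 30.9, 27.9, 22.9 and 35.6 CPM in isoB nulls, against 18.8, 15.3, 22.1 and 16.5 CPM in their controls, and 11.4, 11.6 and 10.1 CPM in isoA nulls, against 25.8, 23.5 and 32.1 CPM in theirs. The groups were apart in both experiments, by a small margin in isoB, and the difference was 1.98 (SE 0.24, adjusted p = 0.000458). *CG31915* followed at 0.82 (SE 0.11, adjusted p = 0.00113). *Apoltp*, the apolipoprotein of the lipid transfer particle that loads lipid onto circulating lipophorin, had 236, 244, 222 and 308 CPM in isoB nulls, against 196, 175, 166 and 176 CPM in their controls. It had 134, 134 and 132 CPM in isoA nulls, against 219, 169 and 244 CPM in theirs. The 3 isoA nulls were nearly equal and below every other sample, and the difference was 1.16 (SE 0.18, adjusted p = 0.00359). *Apoltp* was the single called gene of 3 fat body markers tested.

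In the other 8 genes the isoB null was lower and the isoA null higher than its control. *CG3734* had 19.3, 12.2, 18.2 and 18.6 CPM in isoB nulls, against 32.1, 42.2, 32.9 and 26.7 CPM in their controls. The isoA nulls had 46.7, 41.1 and 40.8 CPM, against 25.1, 24.7 and 21.1 CPM in theirs. Its difference was -1.83 (SE 0.24, adjusted p = 0.00113), and *CG40160* had -0.85 (SE 0.12, adjusted p = 0.00139). *Ugt303A1*, a UDP-glycosyltransferase, had 5.9996, 5.61, 7.08 and 7.16 CPM in isoB nulls, against 12.3, 14.1, 10.5 and 9.75 CPM in their controls, and 16.8, 18.3 and 17.5 CPM in isoA nulls, against 12.7, 11.4 and 7.70 CPM in theirs. The difference was -1.57 (SE 0.25, adjusted p = 0.00439). *Ugt35B1*, which lies in the same megabase of 3R, had the same signs at lower levels, with 1.50, 0.646, 1.19 and 0.982 CPM in isoB nulls, against 2.54, 4.07, 2.72 and 1.89 CPM in their controls, and 1.14, 1.26 and 2.58 CPM in isoA nulls, against 0.548, 0.245 and 0.0905 CPM in theirs. Its difference was -3.78 (SE 0.69, adjusted p = 0.0109).

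These glycosyltransferases belonged to a list of cytochrome P450, glutathione transferase and Ugt enzymes, with a median difference of -0.02. Of its 138 genes tested, 7 were called, 2 higher and 5 lower (5.07%, against 2.54% of all genes). Without isoA control replicate 2 the count was 11. *Ugt36E1* had 10.4, 12.7, 13.8 and 9.99 CPM in isoB nulls, against 17.5, 15.5, 15.99 and 13.4 CPM in their controls, and 24.1, 22.97 and 36.9 CPM in isoA nulls, against 7.67, 12.4 and 12.3 CPM in theirs. The isoA effect of 1.38 was called, and the difference was -1.79 (SE 0.29, adjusted p = 0.00463). *Ugt317A1* was called at 0.71 (SE 0.15, adjusted p = 0.0239), but lost the call in 6 of 14 fits without a sample, with an adjusted p of up to 0.0799 without isoA null replicate 2.

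*Cyp4p2*, a cytochrome P450, had 2.9998, 1.74, 1.65 and 2.82 CPM in isoB nulls, against 4.91, 4.88, 4.44 and 5.67 CPM in their controls. It had 8.12, 2.20 and 8.56 CPM in isoA nulls, against 102, 62.2 and 86.7 CPM in theirs. The isoA controls alone were high, above the 11 other samples, and the difference was 2.60 (SE 0.50, adjusted p = 0.0147).

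For each called gene the group mean of log2 CPM farthest from the median of the other 3 was found, with no minimum distance. It was the isoB null for 112 of the 280 genes (40%), the isoB control for 31 (11.1%), the isoA null for 62 (22.1%) and the isoA control for 75 (26.8%), against 28.2%, 19%, 20.3% and 32.5% of all genes tested. Within the isoA only class, the isoA control was the farthest group for 49 of the 90 genes and the isoA null for 41. *Mal-B1*, a maltase, had 10.1, 10.9, 6.74 and 10.5 CPM in isoB nulls, against 7.32, 11.3, 6.68 and 7.47 CPM in their controls, and 9.46, 11.1 and 8.997 CPM in isoA nulls, against 0.704, 0.245 and 0.453 CPM in theirs. The isoA controls were the low samples here, and the difference was -4.08 (SE 0.40, adjusted p = 9.02e-05). *asRNA:CR45600* had 12.1, 9.61, 12.9 and 12.3 CPM in isoB nulls, against 18.3, 21.1, 13.7 and 15.3 CPM in their controls, and 8.02, 7.75 and 4.72 CPM in isoA nulls, against 0.469, 0.367 and 0.362 CPM in theirs. Its difference was -4.60 (SE 0.36, adjusted p = 9.95e-06), and its exons overlap those of *CG3984*, *CG3987* and *CG6912*, so its counts are uncertain.

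*SPE*, the protease that processes the Toll ligand Spätzle, had 9.07, 8.52, 9.41 and 9.99 CPM in isoB nulls, against 7.19, 8.68, 9.93 and 8.26 CPM in their controls. In isoA nulls it had 9.26, 8.95 and 6.79 CPM, against 39.8, 20.1 and 31.1 CPM in theirs. All 11 samples outside the isoA controls were below 10 CPM, and the difference was 1.99 (SE 0.28, adjusted p = 0.00175). *Tep4*, a thioester protein of the immune system, gave the converse, with 125, 118, 154 and 116 CPM in isoB nulls, against 166, 123, 126 and 124 CPM in their controls, and 33.5, 20.8 and 28.8 CPM in isoA nulls, against 189, 120 and 139 CPM in theirs. Only the isoA nulls were low, with an isoA effect of -2.43 (SE 0.20) and a difference of 2.36 (SE 0.26, adjusted p = 0.000283).

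Of 38 immunity genes tested, 7 were called, all higher (18.4%, against 1.71% of all genes in that direction), with a median difference of 0.40. *NimC4*, a receptor for the clearance of apoptotic cells, had 91.4, 103, 113 and 85.1 CPM in isoB nulls, against 60.2, 57.5, 62.1 and 69.6 CPM in their controls, and 71.6, 53.9 and 53.1 CPM in isoA nulls, against 78.9, 64.0 and 97.4 CPM in theirs. Its difference of 1.08 (SE 0.21, adjusted p = 0.016) lost the call without isoA null replicate 2 and without isoA null replicate 3 (adjusted p = 0.0659 in the second). *NimC1*, a phagocytosis receptor of hemocytes, had 3.64, 3.15, 3.60 and 5.61 CPM in isoB nulls, against 2.49, 3.16, 2.68 and 3.78 CPM in their controls, and 5.84, 6.18 and 6.10 CPM in isoA nulls, against 13.5, 13.5 and 10.3 CPM in theirs. The difference was 1.45 (SE 0.30, adjusted p = 0.0239), with the call lost in 6 of the 14 fits without a sample. *NimB2*, of the same family, was called at 0.85 (SE 0.19, adjusted p = 0.0339) and lost the call in 9 of these fits, and *AttB*, an antibacterial peptide gene, was called at 2.31 with 0.126 to 1.14 CPM over all samples, and in 3 of these fits. *Tep1* was at the floor of 3 counts or fewer in every isoA null and was high in a single isoA control sample, so its fitted difference is not given. Its mean log2 CPM was highest in isoB nulls, at -0.206, against -2.418 in their controls. It was -2.353 in isoA nulls and -0.71 in isoA controls. The list count ranged between 2, without isoA null replicate 2 or 3, and 9 when a sample was left out.

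*NimC1* and *PPO1*, a prophenoloxidase of crystal cells, were the 2 called genes among 12 hemocyte markers tested (16.7%, against 2.54% of all genes). Of the 12 differences, 10 were positive, with a median of 0.43 over the list. *PPO1* had 153, 164, 191 and 147 CPM in isoB nulls, against 114.7, 113, 101 and 114 CPM in their controls, and 204, 192 and 172 CPM in isoA nulls, against 235, 177 and 196 CPM in theirs. Its difference of 0.66 (SE 0.16, adjusted p = 0.0441) was called in 3 of the 14 fits without a sample. The summed level of the markers was 4360 to 7303 CPM in isoB nulls, against 5009 to 5696 CPM in isoB controls, and 4210 to 4754 CPM in isoA nulls, against 4290 to 4732 CPM in isoA controls, so sums overlapped in both experiments. No hemocyte marker was called without isoB control replicate 1 or 3, isoA control replicate 1 or any of the isoA nulls, 1 was called without isoA control replicate 3, and 3 were called without isoA control replicate 2. *Idgf3*, a chitinase-like secreted factor, was called at 0.72 (SE 0.16, adjusted p = 0.0346) as the single call among 32 chitin and matrix genes tested, and lost the call in 9 of 14 such fits.

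**Figure D4:**
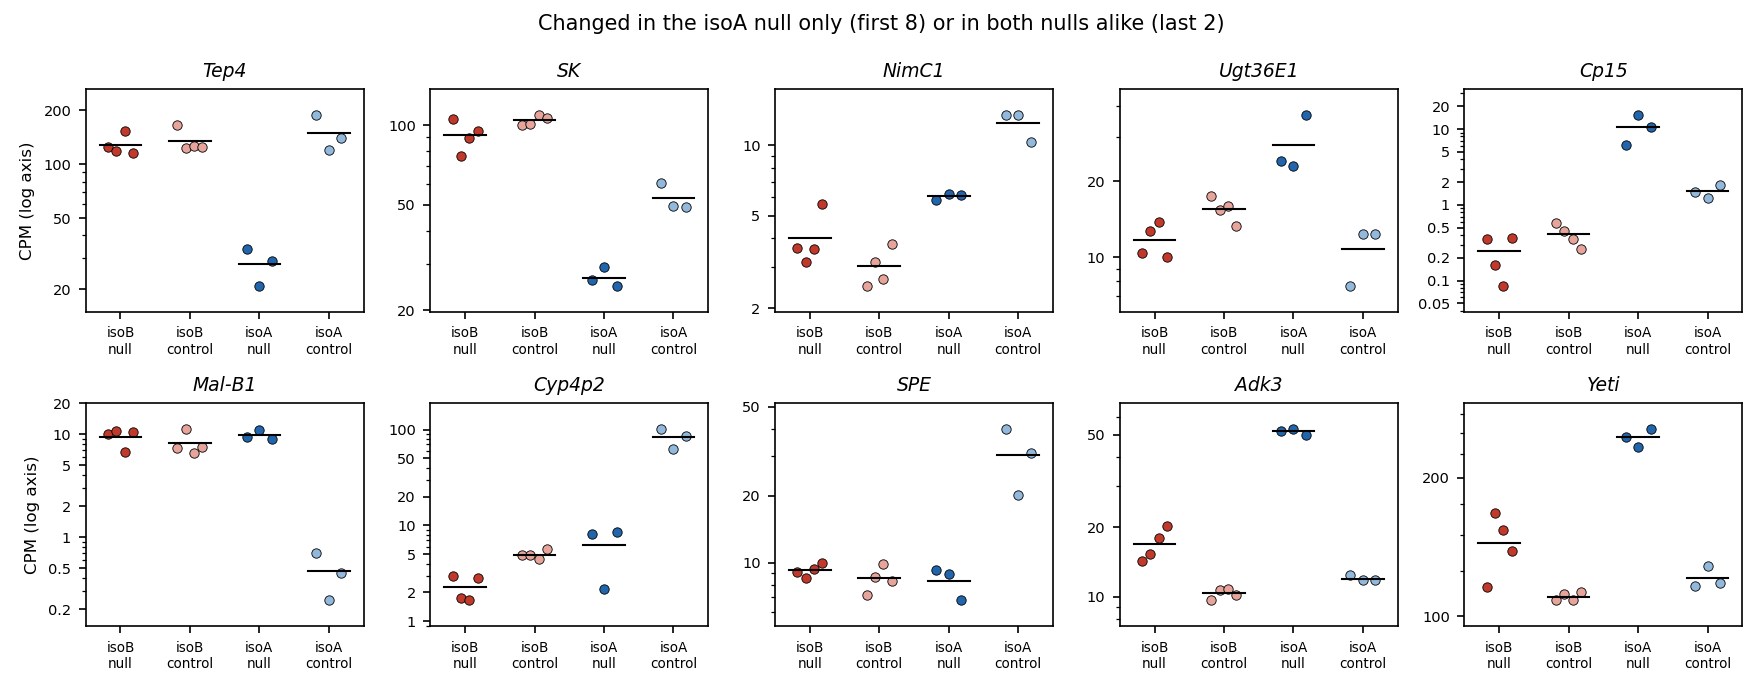
CPM on log axes in each of the 14 samples for 8 genes of the isoA only class and, last, 2 genes changed in both nulls with the same sign. Points are samples and bars are group means. The isoA nulls stand apart in *Tep4*, *SK*, *Ugt36E1* and *Cp15*, the isoA controls in *Mal-B1*, *Cyp4p2* and *SPE*, and in *Adk3* and *Yeti* the mean is highest in isoA nulls and next in isoB nulls.

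Among developmental pathways, Hedgehog signalling held the calls for a ligand and its receptor. *hh*, the ligand, had 26.4, 27.4, 22.0 and 25.8 CPM in isoB nulls, against 12.4, 16.4, 17.5 and 17.7 CPM in their controls. It had 10.2, 9.05 and 8.30 CPM in isoA nulls, against 12.2, 13.5 and 10.3 CPM in theirs. The isoB nulls were above every other sample, and the difference was 1.04 (SE 0.21, adjusted p = 0.018). *ptc*, the receptor and itself a target of the pathway, had 161, 140, 125 and 142 CPM in isoB nulls, against 77.3, 77.7, 82.9 and 90.2 CPM in their controls, and 61.4, 59.2 and 51.8 CPM in isoA nulls, against 64.9, 50.3 and 55.4 CPM in theirs. Its difference was 0.78 (SE 0.16, adjusted p = 0.0193). Both lost their calls without isoA null replicate 2 or 3, with an adjusted p of 0.0663 for *hh* and 0.0704 for *ptc* without replicate 3, and *ptc* also without isoA control replicate 1. The 13 other Hedgehog genes tested were not called (13.3% of the list called, against 2.54% of all genes), and the median difference of the list was 0.04.

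In the Notch list 1 of 28 genes tested was called (3.57%, against 2.54% of all genes), *E(spl)malpha-BFM*, a Bearded family target of Notch. It had 15.9, 15.3, 15.2 and 21.9 CPM in isoB nulls, against 8.36, 8.95, 8.30 and 9.40 CPM in their controls, and 7.08, 4.13 and 3.84 CPM in isoA nulls, against 9.86, 6.98 and 7.79 CPM in theirs. Its difference was 1.68 (SE 0.30, adjusted p = 0.00985) and was called in all 14 fits without a sample. None of the 29 Wnt genes tested was called, with 6 at an unadjusted p under 0.05, against 2304 of all 11021 genes tested. Their median difference was -0.07, with between 0 and 1 call when a sample was left out. The isoB effect alone was called up in 4 of the 29 and the isoA effect in 1, against 516 and 273 of all genes. The medians of these effects were 0.162 and 0.194, against 0.013 and -0.015 over all genes. The Dpp, EGFR, segmentation, ecdysone, circadian clock, sex determination and cell death lists had no call for the difference by edgeR either. An unadjusted p under 0.05 was found for 3, 6, 3, 2, 3, 3 and 3 of their 15, 23, 18, 17, 8, 11 and 26 genes tested.

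*SK*, a calcium-activated potassium channel of neurons, had 106, 76.8, 89.4 and 95.5 CPM in isoB nulls, against 100, 101, 110 and 106 CPM in their controls, and 26.0, 29.0 and 24.7 CPM in isoA nulls, against 60.3, 49.5 and 49.2 CPM in theirs. The isoA nulls were the lowest samples, the isoA effect was called and the difference was 0.81 (SE 0.16, adjusted p = 0.017), with the call lost without isoA null replicate 3 (adjusted p = 0.0663). It was the single call among 19 neuron markers tested, whose median difference was 0.01. *CrebA*, a factor for secretory genes in the salivary gland, had 206, 195, 179 and 195 CPM in isoB nulls, against 145, 154, 146 and 158 CPM in their controls, and 108, 114.8 and 101 CPM in isoA nulls, against 147, 114.6 and 147 CPM in theirs. Its difference was 0.70 (SE 0.13, adjusted p = 0.0136), with the call lost without isoA null replicate 3 (adjusted p = 0.0541), and it was the single call among 9 salivary gland markers. Of 8 glia, 15 muscle, 10 trachea, 12 epidermis and 8 germline markers tested, none was called. By edgeR, 1, 0, 2, 4 and 3 of them had an unadjusted p under 0.05, against 2304 of all 11021 genes tested.

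Cuticle protein genes had calls in both directions. Of 100 tested, 2 were called higher and 3 lower (5%, against 2.54% of all genes), 75 had a negative difference and the median was -0.51. The isoB effect alone was called down in 29 members and up in none, with a median of -0.79, and the isoA effect down in 4 and up in 1, with a median of -0.20. Over all 11021 genes tested, the isoB effect was called down in 634 and the isoA effect in 300. *Ccp84Aa* had 4.79, 4.72, 5.13 and 3.07 CPM in isoB nulls, against 11.3, 18.4, 21.9 and 11.5 CPM in their controls, and 16.4, 28.7 and 17.4 CPM in isoA nulls, against 21.8, 20.6 and 10.2 CPM in theirs. The isoB nulls were the low samples, and the difference was -2.08 (SE 0.44, adjusted p = 0.0241), called in 11 of 14 fits without a sample. *TwdlQ* had 47.9, 10.4, 34.5 and 57.0 CPM in isoB nulls, against 69.1, 79.7, 78.9 and 66.5 CPM in their controls, and 31.4, 29.6 and 40.6 CPM in isoA nulls, against 15.96, 12.2 and 5.97 CPM in theirs. Its difference was -2.54 (SE 0.60, adjusted p = 0.0384), called in 5 of these fits. *Cpr5C*, at 1.49 CPM or less in every sample, was called at -4.08 (SE 0.86, adjusted p = 0.0239) and lost the call in 4.

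The higher pair rested on isoA controls that differed from each other. *Cpr47Eb* had 10.1, 1.41, 2.46 and 3.11 CPM in isoB nulls, against 2.54, 2.98, 4.52 and 2.42 CPM in their controls, and 1.45, 1.26 and 1.57 CPM in isoA nulls, against 47.6, 3.18 and 158 CPM in theirs. *Cpr67B* had 12.4, 3.27, 1.95 and 1.39 CPM in isoB nulls, against 3.62, 1.27, 1.93 and 1.85 CPM in their controls, and 2.02, 2.56 and 2.20 CPM in isoA nulls, against 79.1, 5.39 and 28.5 CPM in theirs. Their differences of 5.99 (SE 1.30, adjusted p = 0.0277) and 5.09 (SE 1.15, adjusted p = 0.0341) were each called in 7 of 14 fits without a sample. Without isoA null replicate 2 no cuticle gene was called, 2 were called without isoA control replicate 3 and 8 without isoA control replicate 2.

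*Try29F*, a trypsin of the larval gut group, was the single call among 19 trypsin and chymotrypsin genes tested. It had 32.4, 29.8, 39.5 and 27.0 CPM in isoB nulls, against 87.6, 99.8, 93.0 and 66.8 CPM in their controls, and 73.5, 110 and 84.7 CPM in isoA nulls, against 83.9, 80.3 and 77.4 CPM in theirs. The isoB nulls were below every other sample, and the difference was -1.58 (SE 0.23, adjusted p = 0.00223). The median difference of the list, 0.38, turned to -0.44 without isoA control replicate 3, whose summed trypsin level of 576 CPM was more than that of the other isoA controls, at 241 and 246 CPM, and 4 members were called without isoA control replicate 1 or 2. *CG6700* (-1.19, SE 0.16, adjusted p = 0.00139) and *asRNA:CR45185* (-2.33, SE 0.33, adjusted p = 0.00181) were the other leading genes that fell in isoB nulls only.

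Eggshell and yolk protein transcripts were low in every sample and differed by experiment. *Cp15*, a chorion protein, had 0.357, 0.162, 0.0848 and 0.368 CPM in isoB nulls, against 0.582, 0.452, 0.351 and 0.264 CPM in their controls, and 6.21, 15.5 and 10.6 CPM in isoA nulls, against 1.49, 1.224 and 1.81 CPM in theirs. The isoA nulls were the high samples, and the difference was -3.61 (SE 0.63, adjusted p = 0.0085). It was the single call for the difference among 16 such genes tested, whose median difference was -0.88. The isoA effect alone was called up in 9 of the 16, with a median of 1.99, and the isoB effect up in 3, with a median of 0.26. Their summed level over 20 genes was 18.5 to 22.8 CPM in isoB nulls, against 11.5 to 26.9 CPM in isoB controls, and 112 to 180 CPM in isoA nulls, against 28.3 to 128 CPM in isoA controls.

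Transcripts of the mitochondrial genome and of the cytosolic ribosome had differences mostly of a single sign, with no call for the difference. All 13 mitochondrial genes tested had a positive difference, with a median of 0.80, and none was called by edgeR. Of the 13, 6 had an unadjusted p under 0.05, against 2304 of all 11021 genes tested. The isoA effect alone was called down in 5 of the 13, with a median of -0.91, and the isoB effect in none. Their summed level was 4994 to 10315 CPM in isoB nulls, against 7393 to 9906 CPM in isoB controls, and 7942 to 8520 CPM in isoA nulls, against 11730 to 16404 CPM in isoA controls. The isoA controls were thus the high samples, and the isoB groups overlapped. Of 89 cytosolic ribosomal protein genes tested, 87 had a positive difference and 68 an unadjusted p under 0.05, with a median of 0.37 and no call by edgeR. The isoB effect alone was called up in 1 of them, and the isoA effect up in 1 and down in 1. Without isoA control replicate 2, 22 of them were called, and without isoB null replicate 1, 3 of the mitochondrial genes were. Their summed level was 118470 to 131020 CPM in isoA nulls, against 133280, 139750 and, in replicate 3, 175090 CPM in isoA controls, and the median was 0.24 without that control sample.

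**Figure D5:**
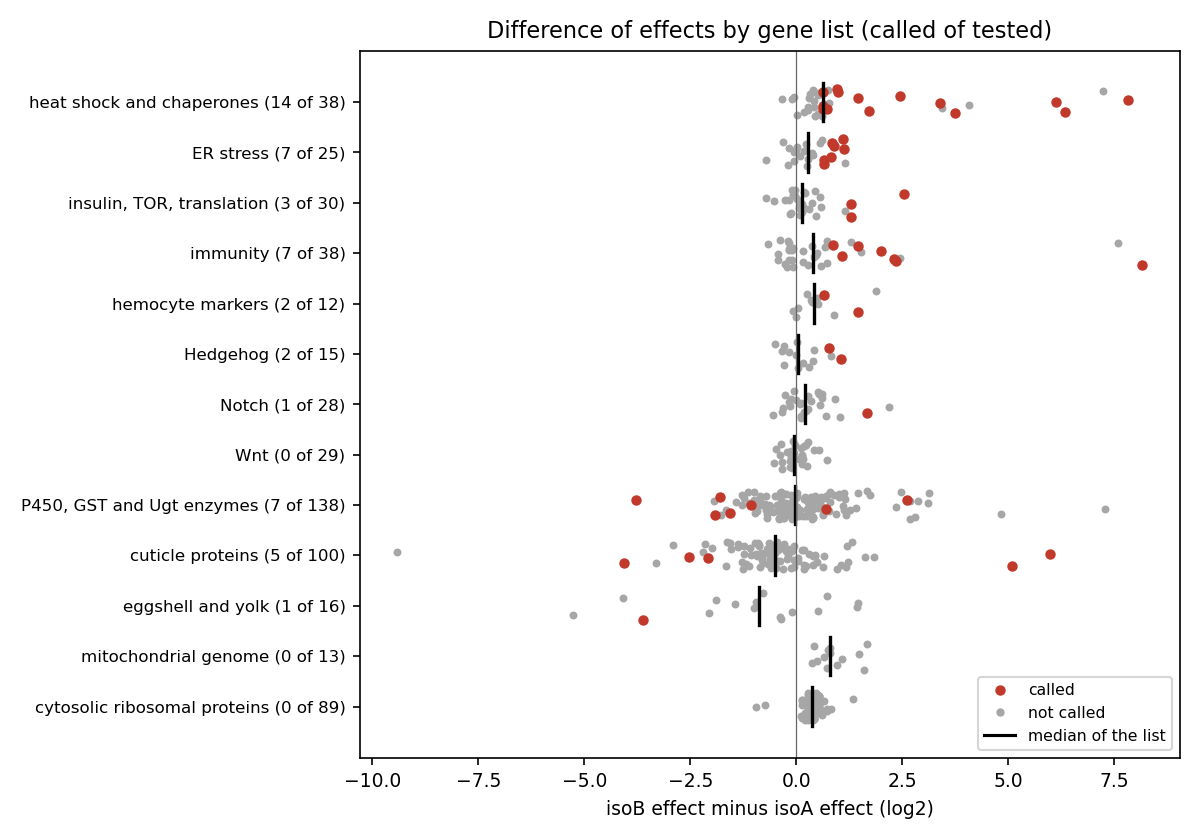
Difference of effects in log2 units (horizontal axis) for each tested member of 13 gene lists (rows), with called genes in red, others in grey and the median of each list as a black bar. Calls are counted beside each list name. Chaperones and endoplasmic reticulum stress genes have calls to the right only, with 14 and 7, while the 89 ribosomal protein genes lie close around 0.37 without a call.

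The 5 genes changed in both nulls with the same sign were called because the isoA effect was larger in 4 of them. *CG40498* had 20.4, 15.8, 16.7 and 21.2 CPM in isoB nulls, against 13.3, 12.8, 15.1 and 13.97 CPM in their controls, and 44.4, 54.1 and 45.6 CPM in isoA nulls, against 11.0, 12.1 and 9.32 CPM in theirs. Its difference was -1.73 (SE 0.19, adjusted p = 0.000283). *Adk3*, an adenylate kinase, had 14.3, 15.3, 17.8 and 20.1 CPM in isoB nulls, against 9.65, 10.7, 10.8 and 10.2 CPM in their controls, and 52.1, 53.01 and 50.02 CPM in isoA nulls, against 12.4, 11.8 and 11.8 CPM in theirs. In both genes each null was above its control, and the isoA nulls were the highest samples. *Adk3* differed by -1.40 (SE 0.16, adjusted p = 0.000458). *Yeti* was called at -0.63 (SE 0.15, adjusted p = 0.0366) and *Tsp42El*, a tetraspanin, at 0.72 (SE 0.18, adjusted p = 0.0493), and they lost the call in 10 and 11 of 14 fits without a sample. *CG9444* had the larger rise in isoB nulls, with 43.7, 39.8, 42.7 and 45.4 CPM, against 17.96, 18.3, 18.2 and 20.7 CPM in their controls, and 35.1, 27.8 and 31.8 CPM in isoA nulls, against 20.9, 22.4 and 21.6 CPM in theirs. Its difference of 0.64 (SE 0.14, adjusted p = 0.031) was called in 7 of these fits.

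Called genes were spread over the chromosome arms, with 2.68% of the 1788 genes tested on the X, where *sgg* lies. Within 1000000 bases on each side of *sgg*, 3 of 166 genes tested were called (1.81%). The window with the largest share was the part of 2R between 1000001 and 2000000 in Release 6, where 3 of 12 genes tested were called, *CR40190*, *CG17684* and *Yeti*, with *CG40498* just outside at 924636. *CR40190* had 11.7, 12.4 and 11.7 CPM in isoA nulls, against 2.74, 1.84 and 1.99 CPM in their controls, and *CG17684* had 6.10, 4.5005 and 5.91 CPM in isoA nulls, against 16.6, 16.7 and 20.7 CPM in theirs. The call for *CR40190* was kept in all 14 fits without a sample and that for *CG17684* in 4. Another neighbouring pair, on 2L, had opposite signs, and reads of these similarly named genes were not checked for shared sequence. *CG31809* (16853620 to 16858714) had 0.776, 0.366 and 0.755 CPM in isoA nulls, against 4.85, 3.31 and 4.98 CPM in their controls, while *CG31810* (16849018 to 16852368) had 3.31, 3.87 and 4.28 CPM in isoA nulls, against 1.10, 0.979 and 0.453 CPM in theirs. In isoB nulls *CG31809* had 4.32 to 5.25 CPM, against 4.82 to 5.97 CPM in their controls, and *CG31810* had 1.43 to 2.17 CPM, against 2.58 to 3.38 CPM in theirs. Their differences were 2.59 (SE 0.34, adjusted p = 0.00115) and -2.91 (SE 0.39, adjusted p = 0.00115). The neighbourhoods were chosen after the values were seen.

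The sex of the embryos was taken from the crosses and was not established from the data. *lncRNA:roX1*, an RNA that coats the X chromosome of males, had 588, 784, 864 and 839 CPM in isoB nulls, against 444, 604, 594 and 617 CPM in their controls, and 567, 520 and 439 CPM in isoA nulls, against 837, 448 and 665 CPM in theirs. The groups overlapped in both experiments and the difference was 0.80 (SE 0.27, adjusted p = 0.112, not called). *lncRNA:roX2*, which has the same role, averaged 12.3 ± 2.75 CPM in isoB nulls, against 11.3 ± 1.68 CPM in their controls (SD, n = 4 each), and 13.2 ± 2.68 CPM in isoA nulls, against 14.5 ± 2.66 CPM in theirs (SD, n = 3 each), with a difference of 0.27 (adjusted p = 0.598). The mean of both RNAs was lower in isoB controls, male by their cross, than in isoA controls. isoB nulls, also male by their cross, had the highest group mean of *lncRNA:roX1*, at 769 CPM. Their mean of *lncRNA:roX2* was lower than that of either isoA group. The roX levels thus did not set the 2 isoB groups together apart from the isoA groups. Levels were not tested between the experiments.

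Of the genes named, *sgg*, *lncRNA:roX1*, *Hsp68*, *Hsp83*, *Hsp27*, *SPE*, *Try29F*, *Ugt36E1*, *Gp93*, *ImpL2*, *CG9444*, *CG31915*, *CG6700*, *CG17684*, *NimB2* and *asRNA:CR45185* also overlap another annotated gene. Reads were counted at the default settings of the counting tool, which do not use strand, so the counts of overlapping genes are uncertain.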

How the data were processed

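Poly(A) RNA of 14 samples of whole embryos was sequenced from a single end with a directional kit. The authors aligned the reads with TopHat (TopHat2 2.1.1, Bowtie2 2.3.4.0) at default settings and deposited raw counts per gene over the exons of the FlyBase annotation, made with Rsubread. The deposited tables also hold log2 CPM, fold changes and p-values of the authors' own limma fits, which were not used. Their copies of the counts were identical to the main table, with 0 values different.

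Counts were fitted with edgeR 4.0.16 (R 4.3.3) in 1 model that gave every group (4 in all, 14 samples) its own mean and shared the estimate of the spread. Genes were kept by filterByExpr (minimum count 10), scaled by TMM and tested with the two-sided quasi-likelihood test of the difference of effects, and p-values of the 11021 kept genes were adjusted by the Benjamini-Hochberg method. This fit replaces the authors' separate fits, since a difference of effects needs both experiments. A group at 3 counts or fewer in every sample was taken as at the floor, which was the case for 10 called genes. Named genes were the 3 with the smallest p in each class and sign, *sgg*, *Hsf*, *roX1* and *roX2*, and in each gene list and sign the 3 called members with the smallest p. Other genes were named after their values were seen. The members and the 35 gene lists were chosen with earlier results of these data known. Of the 17493 identifiers, 17410 were matched to a symbol, and positions are those of the Release 6 assembly in an Ensembl annotation read with rtracklayer 1.62.0. Replicates of a group differed by more than sampling noise. Alternatives were DESeq2 1.42.0, limma-voom 3.58.1, other scalings and filters, a replicate block and leaving out each sample.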

Additional observations from a re-analysis of the deposited data

Results flagged for a closer look

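Of the 60 genes named by rule, 57 were called for the difference between the isoB and the isoA effect. The test was edgeR's quasi-likelihood test of the difference itself (adjusted p of at most 0.05). Apart from *sgg*, *Hsf*, *roX1* and *roX2*, the rule took only called genes, so this count was set in advance. The log2 difference of each of the 57 stands after its name. The difference was largest in the positive direction for *Hsp68* (7.83), *Cpr47Eb* (5.99), *CG13947* (5.39), *Cpr67B* (5.09), *Hsp23* (3.39), *Hph* (3.03), *Cyp4p2* (2.60) and *CG31809* (2.59). Next in size were *Thor* (2.54), *Tep4* (2.36), *SPE* (1.99), *CG16758* (1.98), *fok* (1.70), *E(spl)malpha-BFM* (1.68), *NimC1* (1.45) and *Atg13* (1.33). Smaller positive values were those of *larp* (1.29), *ImpL2* (1.28), *Apoltp* (1.16), *Ero1L* (1.11), *NimC4* (1.08), *hh* (1.04), *Hsf* (0.98) and *Gp93* (0.88). These were followed by *NimB2* (0.85), *Pdi* (0.83), *CG31915* (0.82), *SK* (0.81), *ptc* (0.78), *Ldh* (0.74), *Tsp42El* (0.72) and *Idgf3* (0.72). The smallest positive differences were those of *Ugt317A1* (0.71), *CrebA* (0.70), *Xbp1* (0.66), *PPO1* (0.66) and *CG9444* (0.64). In the negative direction the largest were *asRNA:CR45600* (-4.60), *Cpr5C* (-4.08), *Mal-B1* (-4.08), *Ugt35B1* (-3.78), *Cp15* (-3.61), *CG31810* (-2.91), *TwdlQ* (-2.54) and *asRNA:CR45185* (-2.33). *asRNA:CR45600*, *Cpr5C*, *Mal-B1* and *Ugt35B1* had 9 counts or fewer in every isoA control, and *Cp15* had 9 or fewer in every isoB null. The sizes of these differences are therefore uncertain. Then came *Ccp84Aa* (-2.08), *CG3734* (-1.83), *Ugt36E1* (-1.79), *CG40498* (-1.73), *Try29F* (-1.58), *Ugt303A1* (-1.57), *Adk3* (-1.40) and *CG6700* (-1.19). The remaining negative values were those of *CG40160* (-0.85), *Yeti* (-0.63), *CG33181* (-0.61) and *galla-1* (-0.50). The exons of *CG33181* and *galla-1* overlap those of another gene, so their counts are uncertain. *CG13947* was low, with 4.21, 1.05, 0.212 and 0.900 CPM in isoB nulls, against 0.166, 0.452, 0 and 0.527 CPM in their controls. It had 0.362, 0.733 and 0.881 CPM in isoA nulls, against 5.63, 4.04 and 5.25 CPM in theirs. Neither of its single effects was called, and its difference lost the call in 7 of 14 fits without a sample.

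A sample stood far from the 3 others of its group by Dixon's ratio in 8 of 120 groups of 4 samples examined, where chance gives about 1 in 20. isoB null replicates stood low for *CG3734* in replicate 2 (12.2 CPM), *Xbp1* in replicate 3 (474 CPM) and *Idgf3* in replicate 1 (43.8 CPM), and high for *E(spl)malpha-BFM* in replicate 4 (21.9 CPM). isoB control replicates stood high for *Tep4* in replicate 1 (166 CPM) and *CG9444* in replicate 4 (20.7 CPM), and low for *PPO1* in replicate 3 (101 CPM) and *lncRNA:roX1* in replicate 1 (444 CPM).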

How the results depend on the processing

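All 280 called genes kept the sign of their difference under each of the 24 settings in which they were fitted, and 51 kept their call in all 24. Counts of calls between settings other than a left-out sample ran between 239 (voom) and 318 (total counts), except for DESeq2 and the replicate block. DESeq2 called 852 genes (569 higher, 283 lower), with 55 adjusted p-values not given. Total counts in place of TMM gave 128 higher and 190 lower. When each sample was left out in turn, between 103 and 579 genes were called, 65 to 400 of them higher and 38 to 179 lower, with the extremes without isoA null replicate 3 and isoA control replicate 2. The cause was not tested. The isoA experiment, with 3 samples a group and shallower controls, limits the precision of each difference, and low transcripts near the floor of 3 counts (0.121 to 0.367 CPM) cannot be read as changed in size.

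The labels do not say whether the replicate numbers pair the samples, and the main fit did not pair them. In the isoA experiment the sample titles carry other numbers, which do not match between nulls and controls. Same-numbered isoA pairs, also in the replicate block, thus follow the numbers in the sample descriptions alone. Deviations of same-numbered null and control samples from their group means correlated between -0.171 and 0.190 in the isoB and between -0.140 and -0.064 in the isoA experiment. Differently numbered samples were not compared, so these values cannot tell whether samples were collected in pairs. A fit with the replicate block called 63 genes (44 higher, 19 lower), all among the 280.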
